A study of Rattus norvegicus with 4 samples.

Results

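A set of 10 genes of the endoplasmic reticulum (ER) unfolded protein response were followed in cultured heart muscle cells that received a viral vector for Pdk3. They were taken by symbol from the deposited expression table: Ern1, Atf6, Xbp1, Hspa5, Hsp90b1, Hyou1, Dnajb9, Dnajb11, Herpud1 and Sel1l. All 10 were present, each as 1 row, among the 16290 genes of the table, and all 10 passed the filter on low values described below. The cells were cardiomyocytes of postnatal day 3 rats, kept in a serum-containing medium. Both groups received an adenovirus, a virus used to carry genes into cells, which encoded mock in the control group (libraries Mock 1 and Mock 2) and Pdk3 in the other (libraries Pdk3 1 and Pdk3 2). The sources used here do not give the promoter of the vector, its dose, the time to harvest or whether the libraries came from separate animals or cultures, and untreated cells were not analysed here. The p-values below thus rest on the scatter among 4 libraries alone, which could be technical.

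As background, the ER folds proteins that are bound for membranes, the lumen of organelles and the outside of the cell. When unfolded proteins build up there, sensors in the ER membrane (IRE1, ATF6 and PERK) start the unfolded protein response. IRE1, encoded by Ern1, removes an intron from the Xbp1 messenger in the cytosol. ATF6 is released from the membrane by proteases of the Golgi. Both routes raise the transcription of chaperones and of the machinery of ER-associated degradation (ERAD), which returns misfolded proteins to the cytosol for breakdown, while PERK slows translation and favours ATF4. In muscle the same membrane system continues into the sarcoplasmic reticulum, the calcium store of the cell.

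Most of the 10 genes were a little lower in the Pdk3 libraries. Ern1 fell by 15.2%, Herpud1 fell by 14.3%, Hyou1 fell by 13.0%, Sel1l fell by 12.7% and Atf6 fell by 8.0%, while Dnajb11 rose by 12.7%. Hspa5, Hsp90b1, Xbp1 and Dnajb9 did not pass the threshold. In counts, 5 of 10 fell and 1 of 10 rose, where 11.3% of the 12838 genes tested fell and 11.7% rose (limma on log2(value + 1), Benjamini-Hochberg adjusted p under 0.05). The median log2 fold change of the 10 genes was -0.13, and that of all genes tested was -0.01. In all 10 genes the groups did not overlap, 8 with both Pdk3 libraries below both mock libraries and 2 with both above. The same held for 31.1% and 29.9% of the genes tested.

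Pdk3, the gene carried by the vector, had normalised read counts of 396 and 411 in the mock and of 1218 and 1177 in the Pdk3 libraries, which matches the labels. The 10 cardiomyocyte markers (Tnnt2, Myh6, Ryr2 and others) were all present, with summed values of 21467 to 22388 per library. Multiplied back by the estimated scaling factors, the values gave about 4561000 and 4707000 reads in genes in the mock libraries. The Pdk3 libraries had fewer, about 4140000 and 4304000, and more genes at 0 (891 and 867 against 707 and 720). The part of depth in the differences between the groups was not tested. The 2 libraries of each group differed from each other by less than counting noise, at 0.597 (mock) and 0.598 (Pdk3) of the chi-square that counting alone gives. For that reason calls of the 10 genes and counts of lists are also given with p floored at counting noise, that is, raised to the exact binomial p of the group's pooled reads wherever limma gave a smaller value. With that floor 4 of the 10 genes fell and 1 rose, against 7.45% and 8.39% of all genes tested. The floor does not widen the standard errors (SE) of log2 fold changes given below, which are those of limma. In all 10 genes they were smaller than the SE of counting error alone (Hyou1 0.020 against 0.036, Ern1 0.043 against 0.052). The highest gene held 0.175% to 0.183% of the values in each library. How duplicate reads were handled is not given in the sources, and its part in these values was not tested.

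Promoters of the family are shown because these genes are known as targets of ATF6 and XBP1 through short shared motifs. RefSeq promoter windows (build GRCr8, from 250 bases before to 50 bases after a transcription start) were matched by symbol for 8 of the 10 genes, and Ern1 and Atf6 had no match. The windows were searched on both strands for the ER stress response element ERSE, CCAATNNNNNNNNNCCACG, for ERSE-II, ATTGGNCCACG, and for the core of the unfolded protein response element, TGACGTGG. ERSE was in the windows of 3 of the 8 genes (Hspa5, Hsp90b1 and Xbp1) and in 22 of all 33469 windows (0.066%). ERSE-II was in 3 others (Hyou1, Herpud1 and Dnajb11) and in 17 of all windows (0.051%). The core element was in the Hyou1 window and in 199 of all windows (0.595%). The stretches below run from 20 bases before the first motif to 20 bases after the last, 5′ to 3′ on the strand of the gene. Capitals mark the fixed letters of the motifs, so that a motif on the other strand appears as its reverse complement.
Hspa5, chr3:38452953-38453011, plus strand: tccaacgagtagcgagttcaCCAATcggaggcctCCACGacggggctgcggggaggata
Hsp90b1, chr7:23012327-23012489, minus strand: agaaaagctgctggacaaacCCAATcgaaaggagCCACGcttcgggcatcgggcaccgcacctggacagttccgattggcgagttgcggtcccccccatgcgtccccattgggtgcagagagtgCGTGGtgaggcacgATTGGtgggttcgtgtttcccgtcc
Xbp1, chr14:84604538-84604596, plus strand: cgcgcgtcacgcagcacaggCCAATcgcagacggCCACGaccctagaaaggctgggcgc
Hyou1, chr8:53602671-53602824, plus strand: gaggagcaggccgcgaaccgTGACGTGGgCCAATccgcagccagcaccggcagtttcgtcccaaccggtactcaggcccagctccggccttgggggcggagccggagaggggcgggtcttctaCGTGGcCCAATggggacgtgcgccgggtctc
Herpud1, chr19:10614801-10614851, minus strand: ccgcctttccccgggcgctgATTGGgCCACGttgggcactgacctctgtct
Dnajb11, chr11:91672780-91672830, minus strand: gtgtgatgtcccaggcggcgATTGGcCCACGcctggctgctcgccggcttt

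With the start site counted as base 0, the Hspa5 element spans bases -43 to -25 and that of Xbp1 bases -65 to -47. Hsp90b1 carries one ERSE at -176 to -158 and another, on the opposite strand, at -72 to -54. Hyou1 has 2 annotated starts, and its motifs all lie before the upstream start, with ERSE-II on the opposite strand at -188 to -178 and at -88 to -78 and the core element at -191 to -184, overlapping the first of them. The Herpud1 element lies at -124 to -114 and that of Dnajb11 at -10 to 0, across the start itself. The Sel1l and Dnajb9 windows held none of the 3 motifs, which says only that these letters are not in these windows.

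**Figure D1:**
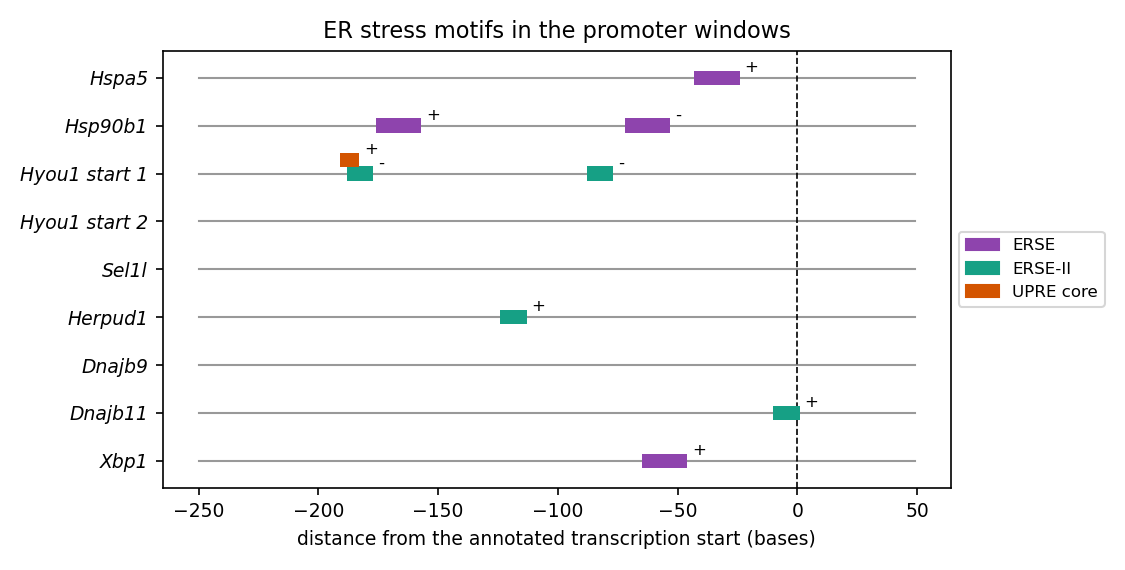
Positions of ERSE, ERSE-II and the core unfolded protein response element in the RefSeq promoter windows (build GRCr8) of 8 genes; the x axis is the distance in bases from the annotated start (dashed line), each bar is a match and + or - its strand relative to the gene. ERSE matches are in Hspa5, Hsp90b1 and Xbp1, and ERSE-II matches in Hyou1, Herpud1 and Dnajb11.

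Set beside expression, ERSE-II was found both in genes that passed the threshold downward and in the gene that passed it upward. Of the 3 genes with ERSE, 0 passed the threshold, by limma adjusted p or with the floor. An unadjusted limma p under 0.05 was found for 2 of them (Hsp90b1 and Xbp1) and for 4671 of the 12838 genes tested. Of the 3 with ERSE-II, Hyou1 and Herpud1 fell and Dnajb11 rose. Among all tested genes with ERSE in their window, 4 of 15 rose and 2 fell (2 and 1 with the floor), and the median log2 fold change was 0.003. Of 9 with ERSE-II 2 rose and 2 fell, and of 91 with the core element 12 rose and 11 fell. Over all genes tested 11.7% rose and 11.3% fell (8.39% and 7.45% with the floor). Scaled to ribosomal protein genes, 3 of the 15 genes with ERSE rose and 7 fell, and their median was -0.08. Under that scaling 7.14% of all genes tested rose and 27.6% fell. Besides Hspa5, Hsp90b1 and Xbp1, the 15 include Calr, Canx, Dnajc3, Creld2 and Ero1b, all encoding proteins of the ER and named here for their motif. Calr, which encodes calreticulin, had 1158 and 1161 in mock and 1221 and 1197 with Pdk3. Its log2 fold change was 0.06 (limma adjusted p = 0.101, and 0.39 with the floor), and -0.027 when scaled to ribosomal protein genes. Dnajc3, which encodes a co-chaperone of BiP, was level, at 481 and 480 against 482 and 481. Ero1b, an oxidase that recharges disulfide isomerases, fell from 294 and 291 to 244 and 246 (-0.25 ± 0.05 as log2 fold change, adjusted p = 0.00963, and 0.0346 with the floor).

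Of the sensors, Ern1 (ENSRNOG00000012864, chromosome 10, 94588555 to 94681914, minus strand, rn6), which encodes the kinase and endoribonuclease IRE1, was lower with Pdk3. Its normalised read counts were 846 and 841 in Mock 1 and Mock 2 and 682 and 748 in Pdk3 1 and Pdk3 2. Both Pdk3 libraries were lower, Pdk3 1 the more so, and the spread between the Pdk3 libraries was wider than that between the mock libraries. The mean fell from 843.5 ± 3.5 to 715.0 ± 46.7 (SD, n = 2 each), or -0.24 ± 0.04 (SE) as log2 fold change (limma adjusted p = 0.00738, and 0.00801 with the floor at counting noise). With 1 library left out at a time, the log2 fold change ranged from -0.31 to -0.17, the smaller value without Pdk3 1.

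Atf6 (ENSRNOG00000024632, chromosome 13, 89055983 to 89242443, minus strand, rn6), the membrane-bound transcription factor, had 875 and 900 in the mock and 812 and 821 in the Pdk3 libraries. The groups stood apart by more than either spread. The mean fell from 887.5 ± 17.7 to 816.5 ± 6.4, or -0.12 ± 0.03 as log2 fold change (limma adjusted p = 0.0196), and the call ended with the floor at counting noise (adjusted p = 0.0827).

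Xbp1 (ENSRNOG00000010298, chromosome 14, 85753760 to 85758145, plus strand, rn6), the factor that IRE1 activates, had 385 and 399 in the mock and 353 and 365 in the Pdk3 libraries. Both Pdk3 libraries lay below both mock libraries, by little more than the spread within a group. The log2 fold change of -0.13 ± 0.04 did not pass (limma adjusted p = 0.0754, and 0.270 with the floor). Its 95% interval from limma was -0.23 to -0.03, and the SE of counting error alone was larger, at 0.075. Counts per gene do not separate the spliced from the unspliced Xbp1 messenger, so the splicing step was not measured here.

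Among the chaperones, Hspa5 (ENSRNOG00000018294, chromosome 3, 13838304 to 13842762, plus strand, rn6), which encodes BiP, the Hsp70 of the ER lumen that also holds the sensors inactive, differed little. It had 1648 and 1669 in the mock and 1614 and 1611 in the Pdk3 libraries, a difference of -2.8% in the mean. The log2 fold change of -0.04 ± 0.02 did not pass (limma adjusted p = 0.176, and 0.524 with the floor), and its 95% interval from limma ran from -0.09 to 0.0045.

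Hsp90b1 (ENSRNOG00000026963, chromosome 7, 27226569 to 27240533, minus strand, rn6), which encodes the Hsp90 of the ER, had 1499 and 1482 in the mock and 1602 and 1519 in the Pdk3 libraries. The Pdk3 libraries were higher, but they differed from each other by more than Pdk3 2 differed from Mock 1. The log2 fold change of 0.07 ± 0.03 did not pass (limma adjusted p = 0.134, and 0.254 with the floor), and its sign turned when the libraries were scaled to ribosomal protein genes (-0.022). It was 0.03 without Pdk3 1 and 0.10 without Pdk3 2.

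Hyou1 (ENSRNOG00000010944, chromosome 8, 48699769 to 48711910, plus strand, rn6), which encodes a large Hsp70-like chaperone that exchanges the nucleotide of BiP, had 1770 and 1789 in the mock and 1536 and 1561 in the Pdk3 libraries. The groups lay far apart next to the spread within each. The mean fell from 1779.5 ± 13.4 to 1548.5 ± 17.7, by 13.0%, or -0.20 ± 0.02 as log2 fold change (limma adjusted p = 0.000508, the same with the floor). Sil1, the other nucleotide exchange factor of BiP and a member of the wider chaperone list, fell as well, from 230 and 235 to 181 and 190 (-0.32 ± 0.06 as log2 fold change, adjusted p = 0.00860, and 0.0125 with the floor).

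Both J-domain genes encode co-chaperones that stimulate BiP, and of these Dnajb11 passed the threshold. Dnajb11 (ENSRNOG00000001803, chromosome 11, 81741297 to 81757813, minus strand, rn6), which assists folding, had 633 and 658 in the mock and 741 and 714 in the Pdk3 libraries. It was the single gene of the 10 that passed the threshold upward. Its mean rose from 645.5 ± 17.7 to 727.5 ± 19.1, or 0.17 ± 0.03 as log2 fold change (limma adjusted p = 0.0114, and 0.0177 with the floor). The call ended when the libraries were scaled to ribosomal protein genes (limma adjusted p = 0.104). Dnajb9 (ENSRNOG00000004006, chromosome 6, 64165913 to 64170151, minus strand, rn6), which takes part in ERAD and in the repression of IRE1, had 407 and 421 in the mock and 393 and 361 in the Pdk3 libraries. Its libraries did not overlap between groups, but Pdk3 1 lay nearer to Mock 1 than to Pdk3 2. The log2 fold change of -0.14 ± 0.05 did not pass (adjusted p = 0.0983, and 0.223 with the floor), and it was -0.07 without Pdk3 2.

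Both ERAD genes fell. Herpud1 (ENSRNOG00000018796, chromosome 19, 11046909 to 11057254, minus strand, rn6), an ER membrane protein that organises the degradation complex, had 672 and 675 in the mock and 589 and 565 in the Pdk3 libraries. The mean fell from 673.5 ± 2.1 to 577.0 ± 17.0, or -0.22 ± 0.03 as log2 fold change (limma adjusted p = 0.00333, and 0.00339 with the floor). Sel1l (ENSRNOG00000004464, chromosome 6, 115572649 to 115616859, minus strand, rn6), the partner that steadies the ubiquitin ligase HRD1, had 1563 and 1545 in the mock and 1372 and 1341 in the Pdk3 libraries. Its mean fell from 1554.0 ± 12.7 to 1356.5 ± 21.9, or -0.20 ± 0.02 as log2 fold change (adjusted p = 0.000881, the same with the floor). In both genes the 2 Pdk3 libraries were close together and far from the mock pair.

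**Figure D2:**
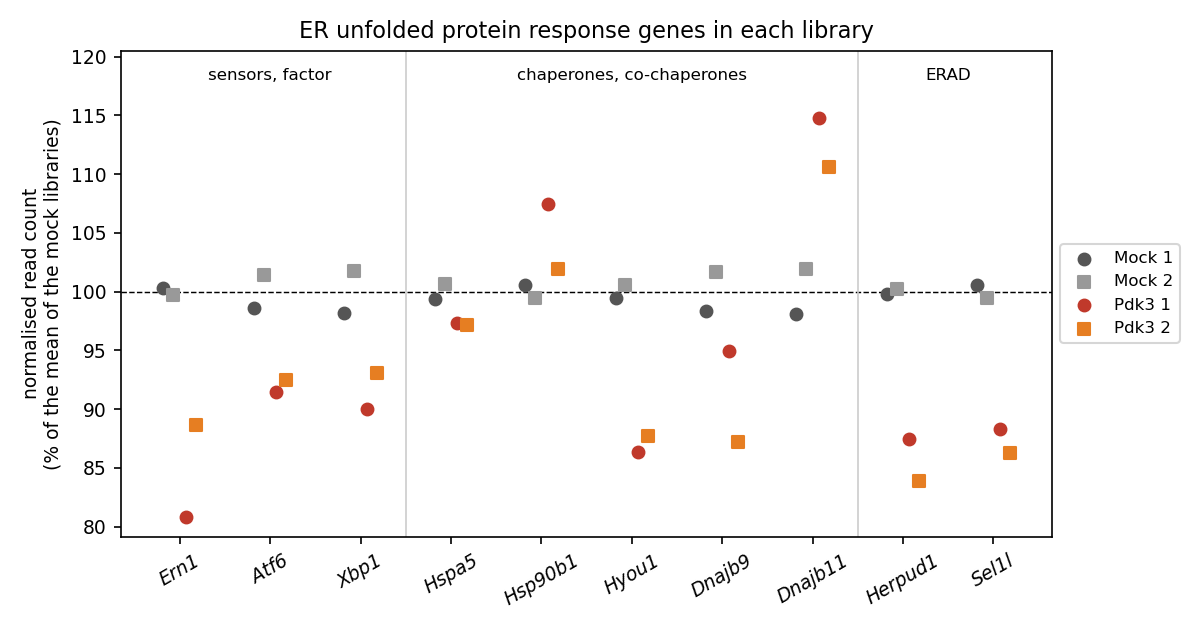
Normalised read count of each gene in each library, as a percent of the mean of the 2 mock libraries (y axis); grey points are the mock and coloured points the Pdk3 libraries. In 8 genes both Pdk3 libraries lie below both mock libraries, and in Hsp90b1 and Dnajb11 both lie above.

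**Figure D3:**
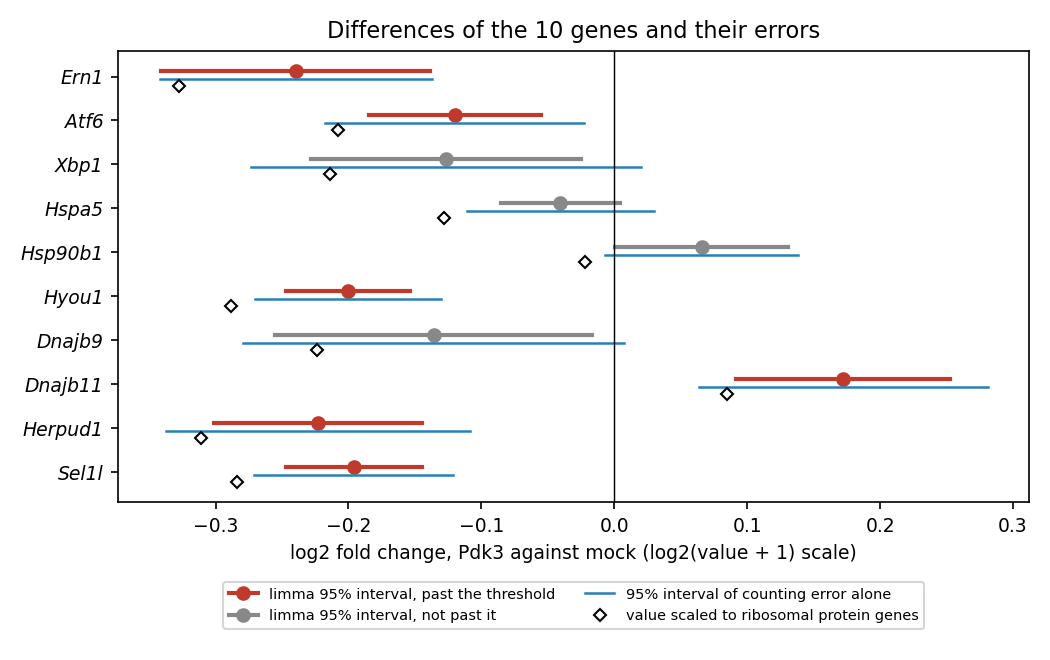
Log2 fold change of each gene (x axis, log2(value + 1) scale) with its 95% interval from limma (thick line, red past the threshold) and the 95% interval of counting error alone (thin blue line); diamonds are the values after scaling to ribosomal protein genes. Ern1, Atf6, Hyou1, Herpud1 and Sel1l fell, Dnajb11 rose, and the diamond of Hsp90b1 alone lies on the other side of 0.

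The balance between the directions depended on the scaling. When the libraries were scaled so that the median of 68 ribosomal protein genes was level, 8 of the 10 genes fell and 0 rose, against 27.6% lower and 7.14% higher over all genes tested. That scaling moved the median of all genes by -0.09 and the median of the 10 genes from -0.13 to -0.22. The call of Dnajb11 ended (0.08 as log2 fold change, adjusted p = 0.104), and Hspa5 (-0.13, adjusted p = 0.000788), Xbp1 (-0.21, adjusted p = 0.00496) and Dnajb9 (-0.22, adjusted p = 0.00335) passed downward. Without an intensity trend limma called 0 of the 10 genes at an adjusted p under 0.05. In that fit 6 of the 10 had an unadjusted p under 0.05, as had 3818 of the 12838 genes tested. With no filter on low values the calls of Ern1 (adjusted p = 0.0794), Atf6 (0.0654) and Dnajb11 (0.0684) ended. Leaving out Mock 1, Mock 2, Pdk3 1 or Pdk3 2 ended all calls of the 10 genes by limma adjusted p. All 10 genes kept their direction, which could not turn because the groups did not overlap.

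Other genes of the ER were sorted into lists by role. In 8 lists with 147 tested genes, 17 fell and 12 rose, 11.6% and 8.16%, with a median log2 fold change of -0.01. Over all genes tested 11.3% fell and 11.7% rose. With the floor 11 fell and 4 rose, where 7.45% of all genes tested fell and 8.39% rose. Scaled to ribosomal protein genes 44 fell and 2 rose, with a median of -0.09. Under that scaling 7.14% of all genes tested were higher and 27.6% lower, and the count of higher and of lower genes was 0 and 10 for ERAD, 0 and 6 for chaperones, 0 and 5 for disulfide isomerases, 1 and 4 for sensors and signalling, 1 and 3 for N-glycosylation, 0 and 9 for COPII vesicles, 0 and 5 for translocation and 0 and 2 for ER-phagy. Whether the 10 genes differ from the other ER genes was not tested. Among the 143 tested genes annotated to protein processing in the ER by KEGG in the deposited table, a list chosen after the file was seen and one that includes some of the 10, 24 fell and 19 rose (18 and 8 with the floor).

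In the ERAD list 4 of 27 genes fell and 0 rose (3 and 0 with the floor), with a median of -0.02. Edem2, which marks misfolded glycoproteins for disposal, fell from 208 and 199 to 149 and 156 (-0.41 ± 0.07 as log2 fold change, limma adjusted p = 0.00494). Syvn1, which encodes HRD1, the ligase that Sel1l accompanies, fell from 436 and 389 to 334 and 352 (-0.26 ± 0.06, adjusted p = 0.0198). Os9, a lectin of the same complex, fell from 629 and 667 to 579 and 548 (-0.20 ± 0.04, adjusted p = 0.0139). These 3 calls held with the floor (adjusted p = 0.00518, 0.0235 and 0.0158). Among the genes of the list that did not pass, Derl1 was close to level (481 and 547 against 513 and 539). Vcp, the ATPase that extracts substrates, was higher in both Pdk3 libraries (1615 and 1632 against 1706 and 1685). Its log2 fold change was 0.06 (limma adjusted p = 0.0565).

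Among 21 other chaperones 3 rose and 2 fell (0 and 1 with the floor, the fall being that of Sil1). Canx, the membrane lectin calnexin, rose from 2037 and 2040 to 2175 and 2142 (0.08 ± 0.02 as log2 fold change, adjusted p = 0.0152), a call that ended with the floor (0.0577) and a sign that turned when scaled to ribosomal protein genes (-0.01). Dnajc10, a J-domain disulfide reductase, stood at 0.14 as log2 fold change (adjusted p = 0.0446, and 0.0578 with the floor). Of 18 disulfide isomerases and oxidases 2 rose and 4 fell (1 and 3 with the floor). Pdia4 fell from 766 and 756 to 703 and 668 (-0.15 ± 0.03, adjusted p = 0.0173), and Tmx4 rose from 1263 and 1266 to 1427 and 1381 (0.15 ± 0.02, adjusted p = 0.00420), with 0.0359 and 0.00435 under the floor; the call of Tmx4 ended when scaled to ribosomal protein genes. Pdia3 was level (1002 and 1002 against 1000 and 1004).

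Among 14 other sensors and signalling genes 1 rose and 1 fell (1 and 0 with the floor). Wfs1, an ER membrane protein that restrains ATF6, rose from 1070 and 1088 to 1221 and 1231 (0.18 ± 0.02 as log2 fold change, adjusted p = 0.00149, the same with the floor). Eif2ak3, which encodes PERK, had 367 and 347 in the mock and 371 and 358 in the Pdk3 libraries (adjusted p = 0.684). Mbtps1, a protease that releases ATF6, had 871 and 864 against 837 and 855 (adjusted p = 0.372). Of 16 genes of N-glycosylation 2 rose and 1 fell (1 and 0 with the floor), with Stt3a, a catalytic subunit of the oligosaccharyltransferase, up from 967 and 1006 to 1168 and 1159 (0.24 ± 0.03, adjusted p = 0.000970, the same with the floor). Of 22 genes of COPII vesicles, which carry cargo out of the ER, 3 fell and 0 rose (2 and 0 with the floor), led by the exit site scaffold gene Sec16a (1567 and 1556 to 1357 and 1370, -0.20 ± 0.02, adjusted p = 0.000598, the same with the floor). Of 23 translocation genes 3 rose and 1 fell (1 and 1 with the floor), and of 6 genes of ER-phagy 1 rose and 1 fell (0 and 1).

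The PERK arm held genes that rose and genes that fell. Of 13 tested genes 5 rose and 2 fell (3 and 1 with the floor), and 3 rose and 4 fell when scaled to ribosomal protein genes. Atf4, the factor translated when PERK is active, rose from 511 and 505 to 592 and 595 (0.22 ± 0.03 as log2 fold change, limma adjusted p = 0.00276). Chac1 (51 and 47 to 98 and 83) and Asns (287 and 304 to 344 and 372) rose too. Ddit3, which encodes CHOP, fell from 211 and 221 to 167 and 182 (-0.31 ± 0.07, adjusted p = 0.0187). Ddit4 fell from 244 and 238 to 201 and 211 (-0.23 ± 0.06, adjusted p = 0.0299). With the floor the adjusted p was 0.00453 for Atf4, 0.00384 for Chac1, 0.0135 for Asns and 0.0257 for Ddit3. The call of Ddit4 ended with the floor (adjusted p = 0.106). ATF4 also answers to kinases other than PERK, and the values do not separate them.

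**Figure D4:**
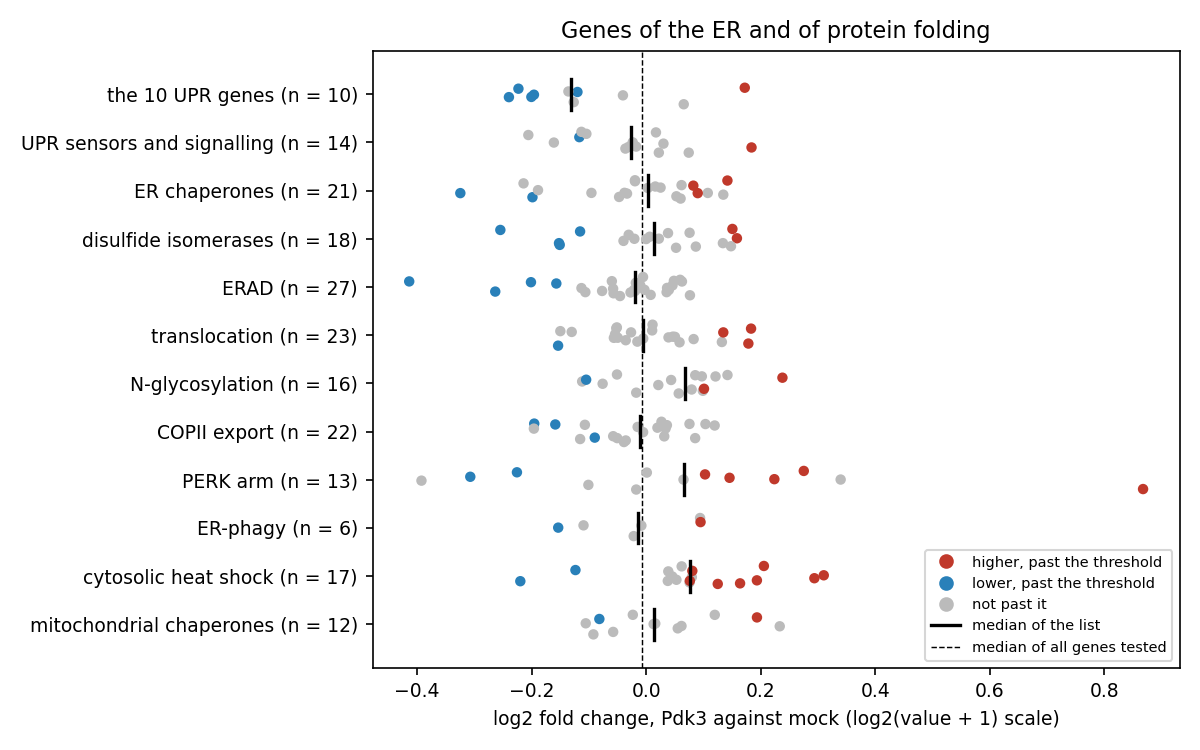
Log2 fold change of each tested gene (points; x axis, log2(value + 1) scale) in the 10 unfolded protein response (UPR) genes and in 11 lists of the ER and of protein folding; red and blue mark genes past the threshold, black bars the list medians and the dashed line the median of all genes. The 10 genes have a median of -0.13, and the ERAD list one of -0.02.

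Markers of other cell types differed between the groups as well. Of 10 macrophage markers 5 fell and 0 rose, with summed values of 1676 to 1779 in the mock and 1389 to 1464 in the Pdk3 libraries. Of 8 tested endothelial markers 2 fell (sums of 1134 to 1197 and 1054 to 1093), and of 6 tested mesothelial markers 2 fell (451 to 473 and 357 to 389). Of 9 tested fibroblast markers 1 rose and 1 fell (11040 to 11293 and 10845 to 11214), and of 8 smooth muscle markers 3 rose (4035 to 4108 and 4417 to 4514). Erythroid markers summed to 79 to 89 and to 38 to 47, with 2 of 3 tested rows lower, and the plasma and B cell list to 407 to 419 and 440 to 457, with 1 of 4 higher, Sdc1, which other cells also express. None of the markers in the table was at 0 in any library, but some were close to it and below the filter. Mzb1 of the plasma and B cell list had 1 and 1 in the mock and 2 and 1 in the Pdk3 libraries. The erythroid marker Ahsp had 2 and 2 against 3 and 1. Cardiomyocyte markers had 4 of 10 higher and 1 lower (3 and 1 with the floor), and the floor changed no other of these marker counts. Over all genes tested 11.7% rose and 11.3% fell (8.39% and 7.45% with the floor). Scaled to ribosomal protein genes, 7.14% rose and 27.6% fell. Under that scaling 0 cardiomyocyte markers rose and 1 fell, with 0 and 6 for fibroblast and 0 and 7 for macrophage markers. The counts were 0 and 3 for endothelial, 0 and 3 for mesothelial and 3 and 1 for smooth muscle markers. They were 0 and 2 for erythroid and 1 and 0 for plasma and B cell markers. The part of these cells in the values of the 10 genes was not tested, and in such bulk libraries fewer cells of a type and less RNA per cell cannot be told apart.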

How the data were processed

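The authors deposited 1 table of read counts per gene, normalised between libraries and rounded to whole numbers; these deposited values are used as a score and are not raw counts. The build was rn6, and STAR 2.6.1d, featureCounts 1.6.5, Trimmomatic 0.39 and DESeq2 1.26.0 were among the tools, per the submitters' processing notes, which carry no settings; the sources used here do not give the strand setting or gene filter. No other gene of the table overlaps any of the 10 genes in rn6. Gene lengths were not used, so levels are not compared between genes.

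Genes that reached 10 in 2 or more libraries (12838) were tested on log2(value + 1) with limma 3.58.1 in R 4.3.3 (trend, group as the single term, 2 residual and 5.56 prior degrees of freedom), two-sided, with Benjamini-Hochberg adjustment over all genes and a threshold of 0.05. Scaling factors (1.0255, 1.0567, 0.9246 and 0.9627) were estimated from skipped or doubled whole numbers. Intervals given as from limma rest on its SE, and so on the scatter among the libraries. The intervals of counting error alone are separate. Without molecular identifiers, reads are not separate molecules, so those intervals cover counting error only. The 10 genes and all lists were chosen with earlier results of these data known. Named genes were taken by rule, up to 3 per list and direction by smallest p; Calr, Creld2, Dnajc3, Derl1, Vcp, Pdia3, Eif2ak3 and Mbtps1 stand outside it and were chosen for their roles after their values were seen. Other settings tried were the replicate number as a block, leaving out each library, TMM or ribosomal protein scaling, no filter, a minimum of 50, pseudocounts of 0.5 and 8, no trend, and the floor at counting noise.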

Additional observations from a re-analysis of the deposited data

How the results depend on the processing

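Of the 10 genes, 9 kept their direction under all 13 alternatives, and Hsp90b1 turned to -0.022 on the log2 scale under ribosomal protein scaling. Because the groups did not overlap in any of the 10 genes, only TMM or ribosomal protein scaling could turn a direction. Over all genes, limma called 2945 (1496 higher, 1449 lower). Ribosomal protein scaling gave 4459 (917 and 3542), no filter 1276 (737 and 539) and no trend 851 (526 and 325); the floor at counting noise gave 1077 and 957. Of the 10 genes 6 were called (1 higher, 5 lower). Ribosomal protein scaling gave 0 higher and 8 lower, no filter 3 called, 0 higher and 3 lower (Hyou1, Sel1l and Herpud1), and no trend 0 called, 0 higher and 0 lower, with adjusted p of 0.0701 to 0.155 for the 6. Leaving out each library in turn (1 residual degree of freedom) gave 0 calls over all genes and 0 among the 10, higher or lower, by limma; 2918 to 3330 genes, and 5 to 7 of the 10, had an unadjusted p under 0.05. Of 198 counts for the other lists with all 4 libraries, 124 stayed within 1.5 times the main count. Same-numbered libraries did not deviate together (r = 0.038 over 12838 genes). Because the libraries of a group differed by less than counting noise, this cannot tell whether the numbers pair them. With the replicate block 2672 genes and 6 of the 10 were called.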

Other observations

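Chaperones outside the ER were counted in the same way. Of 17 tested genes of the cytosolic heat shock list 8 rose and 2 fell (5 and 1 with the floor at counting noise), with a median log2 fold change of 0.08. Of all genes tested 11.7% rose and 11.3% fell (8.39% and 7.45% with the floor). Hsph1, a cytosolic Hsp110 that exchanges the nucleotide of Hsp70, rose from 719 and 756 to 905 and 924 (log2 fold change 0.31 ± 0.03, limma adjusted p = 0.000645), and the co-chaperone gene Dnajb1 from 416 and 414 to 512 and 506. Stip1, which links Hsp70 and Hsp90, rose from 842 and 832 to 948 and 928. Bag3 fell from 1049 and 1004 to 944 and 940, and Hsf1, the heat shock factor, from 325 and 317 to 293 and 259. With the floor the adjusted p was 0.000645 for Hsph1, 0.00124 for Dnajb1, 0.00843 for Stip1, 0.0499 for Bag3 and 0.0619 for Hsf1, whose call ended. Scaled to ribosomal protein genes, 2 rose and 2 fell, with a median of -0.01, and the call of Stip1 ended. Under that scaling 7.14% of all genes tested rose and 27.6% fell. Among 12 mitochondrial chaperones and proteases 1 rose and 1 fell (1 and 0 with the floor, and 1 and 4 under that scaling), and Hspd1, the mitochondrial Hsp60, rose from 577 and 584 to 662 and 666 (adjusted p = 0.0102 with the floor). The difference between these lists and the ER genes was not tested.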
